A study of Mus musculus with 10 samples.

Results

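Transcripts of the kidney proximal tubule were followed through RNA-seq libraries of sorted renin cells, as 34 marker genes of that tubule segment. The genes were given as a list of symbols of transporters, endocytic receptors, enzymes and a transcription factor. All 34 were found by symbol among the 32648 genes of the deposited table, and all 34 were among the 18825 genes with enough counts to be tested. They were used to measure how much tubule RNA the sorted cells carried, and whether it differed between kidneys and operations.

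The cells were taken from the renal cortex of Ren1c-YFP mice of the C57BL/6 strain, adults of 8 to 12 weeks, in which yellow fluorescent protein reports the renin gene. In 3 coarctation mice the aorta had been narrowed between the origins of the right and left renal arteries 72 h earlier, and 2 sham mice were operated on without exposing or narrowing the aorta. Living, DAPI-negative YFP cells were sorted, 1000 per kidney, and amplified with SMART-Seq v4. The 10 libraries were coarctation right, coarctation left (n = 3 mice each), sham right and sham left (n = 2 mice each), with the right and the left kidney of a mouse paired, and held 20029817 to 32006229 estimated counts. The labels give no sex, no blood pressure and no purity of the sort.

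The proximal tubule takes back most of the glucose, amino acids, phosphate and bicarbonate that the glomerulus filters. Carriers and endocytic receptors in its apical brush border bring solutes and proteins into the cell, and basolateral carriers pass them to the blood or take up organic anions for secretion. The segment also makes glucose and modifies amino acids, and its cells, which form much of the cortex, lie close to the afferent arterioles where renin cells sit.

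Reads of this tubule list were present in every library. The summed level of the 34 genes was 2940.1, 4167 and 6267 TPM (transcript abundance scaled to a fixed total per library) in the right kidneys of coarctation mice 1, 2 and 3, and 3169, 2002 and 12708 TPM in their left kidneys. It was 5630.1 and 1724 TPM in the right kidneys of sham mice 1 and 2, and 7038 and 1501 TPM in their left kidneys. The 4 groups overlapped, with means of 4458 ± 1682 TPM in coarctation right, 5960 ± 5873 TPM in coarctation left, 3677 ± 2762 TPM in sham right and 4270 ± 3915 TPM in sham left libraries (SD). These sums were 0.15% to 1.27% of all TPM. In bulk libraries fewer tubule cells and less RNA per tubule cell cannot be told apart, nor can RNA from whole tubule cells, free RNA and transcripts made by the sorted cells themselves.

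**Figure D1:**
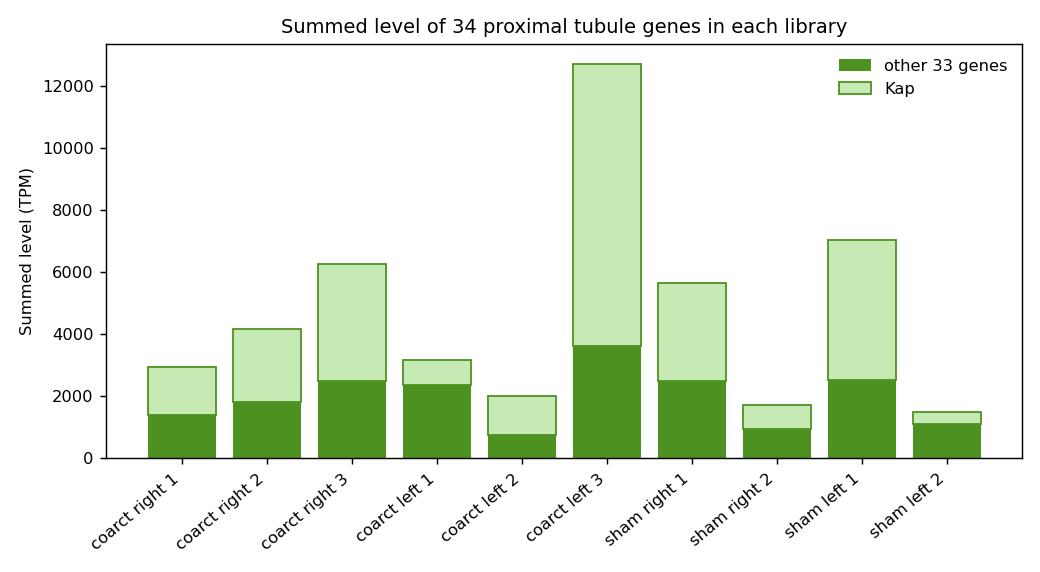
Bars give the summed TPM of the 34 proximal tubule genes in each of the 10 libraries, with the share of Kap in light green above the other 33 genes in dark green. The left kidney of coarctation mouse 3 was highest at 12708 TPM, and both kidneys of sham mouse 2 and the left kidney of coarctation mouse 2 were the 3 lowest.

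The most abundant member was Kap, the kidney androgen-regulated protein of mouse proximal tubule, which made up 25.2% to 71.6% of the sum. The 12 most abundant members held 86.0% to 97.1% of it, so that the other 22 genes together reached only 80.0 to 445 TPM per library. The median member stood at 5.58 to 24.5 TPM, above the median of all tested genes, which was 1.81 to 2.54 TPM in the same libraries. No member was at 0 in any library. The lowest members in mean level were Cubn with 1.20 TPM, Slc7a8 with 3.06 TPM and Slc13a3 with 3.34 TPM.

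Promoter sequences are shown for Kap, the most abundant member, and Slc3a1, the member with the smallest p in 3 comparisons. They are the 250 bases before the gene start in RefSeq, GRCm38.p6, written 5′ to 3′ on the gene's own strand. Capitals mark CAAAGTCCA, a form of the site of HNF4A, which is itself a member as Hnf4a. The windows are chr6:133853668-133853917 on the minus strand for Kap and chr17:85028097-85028346 on the plus strand for Slc3a1.
Kap: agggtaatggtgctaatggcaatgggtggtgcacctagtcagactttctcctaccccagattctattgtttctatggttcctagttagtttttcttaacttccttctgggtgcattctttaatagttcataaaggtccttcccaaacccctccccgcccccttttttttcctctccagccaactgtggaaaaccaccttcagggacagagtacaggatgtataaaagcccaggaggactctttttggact
Slc3a1: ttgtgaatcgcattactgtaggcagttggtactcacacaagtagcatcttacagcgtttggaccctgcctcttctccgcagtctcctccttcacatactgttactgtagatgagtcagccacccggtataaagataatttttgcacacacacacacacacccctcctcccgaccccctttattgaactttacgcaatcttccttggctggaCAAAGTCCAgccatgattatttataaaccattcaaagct

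RefSeq promoters were matched for 28 of the 34 members, some with several starts. On either strand, CAAAGTCCA was in 1 of the 38 promoters of these 28 genes (2.63%), that of Slc3a1, and in 0.384% of all 32851 promoters of the same length. It was not in the Kap window. These matches describe letters in a fixed window, with no measure of binding.

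Among the 9 apical uptake carriers the sum was 40.5 to 205 TPM per library. Slc34a1, the sodium-phosphate cotransporter of the brush border, had 26.1, 45.8 and 60.8 TPM in the right kidneys and 85.3, 22.4 and 56.0 TPM in the left kidneys of coarctation mice 1, 2 and 3. In sham mice 1 and 2 its level was 68.2 and 18.0 TPM in the right and 84.5 and 33.3 TPM in the left kidneys. Slc5a2, the glucose carrier of the early tubule, had 15.3, 10.3 and 25.2 TPM in coarctation right, 25.4, 8.82 and 12.0 TPM in coarctation left, 15.6 and 1.28 TPM in sham right and 19.6 and 14.9 TPM in sham left libraries. On TPM both genes overlapped between every pair of groups, and both were lowest in the right kidney of sham mouse 2. On log2 CPM, Slc5a2 was lower in every sham right than in every sham left kidney, with 2 kidneys a side. The same held for Slc3a1, Miox and, at a difference of only -1e-05, Keg1. The other 7 ranged from Slc5a12, a lactate carrier with a mean of 16.1 TPM, to Slc34a3, a second phosphate carrier with 3.38 TPM. Between them lay Slc13a1, a sulphate carrier with 10.8 TPM, Slc7a13, an amino acid carrier of the late tubule with 6.95 TPM, Slc3a1 with 5.64 TPM, Slc6a19, a neutral amino acid carrier with 5.25 TPM, and Slc22a12, a urate carrier with 4.64 TPM.

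The 9 basolateral and other carriers summed to 41.0 to 181 TPM. Slc22a8, the organic anion transporter OAT3, had 8.39, 3.11 and 6.21 TPM in coarctation right, 19.0, 4.66 and 6.34 TPM in coarctation left, 6.82 and 0.667 TPM in sham right and 5.58 and 0.672 TPM in sham left libraries. Slc22a6, the related OAT1, had 1.70, 4.28 and 6.85 TPM in coarctation right, 2.78, 1.16 and 7.28 TPM in coarctation left, 9.38 and 0.734 TPM in sham right and 7.69 and 1.09 TPM in sham left libraries. The 2 organic anion transporters did not share their order. Slc22a8 was highest in the left kidney of coarctation mouse 1, where Slc22a6 lay well below its level in sham mouse 1. Of the rest, Slc27a2, a fatty acid carrier and acyl-CoA synthetase, averaged 43.5 TPM, Slc22a18 averaged 23.4 TPM and Slc7a7, which with its partner exports cationic amino acids, averaged 10.5 TPM. Slc4a4, the sodium-bicarbonate cotransporter, averaged 8.88 TPM, Slc2a2, the glucose exit carrier, 8.42 TPM, Slc13a3, a dicarboxylate carrier, 3.34 TPM, and Slc7a8, a neutral amino acid exchanger, 3.06 TPM.

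The endocytic receptors megalin, encoded by Lrp2, and cubilin, encoded by Cubn, bind filtered proteins and were low throughout. Lrp2 had 4.88, 4.65 and 4.44 TPM in coarctation right, 8.05, 2.49 and 8.10 TPM in coarctation left, 11.4 and 2.07 TPM in sham right and 6.56 and 3.03 TPM in sham left libraries. Cubn had 1.51, 1.28 and 1.19 TPM in coarctation right, 1.32, 0.478 and 1.32 TPM in coarctation left, 1.57 and 0.505 TPM in sham right and 2.18 and 0.691 TPM in sham left libraries. Each was lowest in the left kidney of coarctation mouse 2 or in the right kidney of sham mouse 2, and the groups overlapped. For both receptors the 2 sham right kidneys lay on either side of the 3 coarctation right kidneys. Hnf4a, the nuclear receptor that maintains the tubule program, had 3.83, 3.86 and 3.81 TPM in coarctation right, 5.95, 1.35 and 5.49 TPM in coarctation left, 5.24 and 2.03 TPM in sham right and 4.75 and 2.06 TPM in sham left libraries. The 3 coarctation right kidneys were close together and lay between the 2 sham right kidneys.

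Most of the abundant members were enzymes, whose 10 genes summed to 470.2 to 2012 TPM. Miox, which opens the ring of myo-inositol, had 388, 446 and 632 TPM in coarctation right, 585, 183 and 937 TPM in coarctation left, 433 and 302 TPM in sham right and 589 and 376 TPM in sham left libraries. Acsm2, a medium-chain acyl-CoA synthetase, had 90.9, 146 and 260.0 TPM in coarctation right, 214, 84.8 and 230 TPM in coarctation left, 503 and 76.3 TPM in sham right and 318 and 80.4 TPM in sham left libraries. Miox was highest in coarctation mouse 3 and Acsm2 in sham mouse 1, in each case across both kidneys of that mouse.

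The gluconeogenic enzyme Fbp1 had 122, 133 and 155 TPM in coarctation right, 234, 32.7 and 213 TPM in coarctation left, 150.5 and 85.5 TPM in sham right and 157 and 73.0 TPM in sham left libraries. Gatm, the first enzyme of creatine synthesis, had 89.2, 57.2 and 93.1 TPM in coarctation right, 131, 28.2 and 70.1 TPM in coarctation left, 91.4 and 39.2 TPM in sham right and 91.2 and 77.7 TPM in sham left libraries. Ass1, which makes argininosuccinate, had 47.1, 55.4 and 62.8 TPM in coarctation right, 69.1, 24.3 and 99.2 TPM in coarctation left, 55.8 and 37.7 TPM in sham right and 75.3 and 31.2 TPM in sham left libraries. All 3 were lowest in the left kidney of coarctation mouse 2, and the spread between left kidneys of coarctation mice was wider than that between their right kidneys. Pck1, the gluconeogenic carboxykinase, averaged 34.7 TPM and Ggt1, a brush border glutathione peptidase, 27.9 TPM.

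The protease gene Napsa had 93.9, 101 and 30.2 TPM in coarctation right, 63.4, 26.9 and 55.9 TPM in coarctation left, 102 and 12.5 TPM in sham right and 79.5 and 8.32 TPM in sham left libraries. Cyp4b1, a monooxygenase, had 10.1, 58.7 and 119 TPM in coarctation right, 10.5, 29.8 and 156 TPM in coarctation left, 109 and 15.4 TPM in sham right and 98.4 and 20.0 TPM in sham left libraries. Cyp2e1, the ethanol-inducible monooxygenase, had 4.53, 55.5 and 77.6 TPM in coarctation right, 10.9, 44.2 and 175 TPM in coarctation left, 84.5 and 13.8 TPM in sham right and 97.1 and 11.9 TPM in sham left libraries. The highest library was 12.3-fold above the lowest for Napsa, 15.5-fold for Cyp4b1 and 38.5-fold for Cyp2e1. The same ratio was 18.8-fold for Pck1 and 9.26-fold for Ggt1, and 4.09-fold to 7.15-fold for the other 5 enzymes.

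The remaining abundant members belong to neither class. Kap had 1546, 2348 and 3784 TPM in coarctation right, 799, 1246 and 9094 TPM in coarctation left, 3144 and 780.0 TPM in sham right and 4524 and 397 TPM in sham left libraries. Ttc36, a tetratricopeptide repeat gene, had 194, 376 and 529 TPM in coarctation right, 351, 133 and 872 TPM in coarctation left, 401 and 174 TPM in sham right and 456 and 175 TPM in sham left libraries. Keg1, a gene of kidney and liver related to glycine acyltransferases, had 124, 125 and 186 TPM in coarctation right, 171, 46.7 and 387 TPM in coarctation left, 119 and 89.5 TPM in sham right and 112 and 106 TPM in sham left libraries. All 3 were highest in the left kidney of coarctation mouse 3, and on this scale the right kidneys of coarctation mice were all above those of sham mice for Keg1 alone.

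Most members were high or low together in a library, whatever its group. Each gene was set against its own mean of log2 CPM over the 10 libraries. The median member lay at 0.11, -0.02 and 0.41 in coarctation right, 0.98, -1.19 and 0.91 in coarctation left, 0.41 and -1.25 in sham right and 0.56 and -0.77 in sham left libraries. In the 3 low libraries 31 or 32 of the 34 genes lay below their own mean. A second list of 50 other proximal tubule genes gave 0.19, -0.14 and 0.33, then 0.87, -1.03 and 1.18 in the right and left kidneys of coarctation mice, and 0.26 and -1.19, then 0.55 and -0.72 in the right and left kidneys of sham mice. Taking each library's median away lowered the SD across libraries in 31 of 34 members, and its median over the members was 0.65 after this step and 0.96 before it. The median taken away came from these same 34 genes, so a lower SD was in part built in. The profile of the 34 genes was alike between libraries as a description across genes, which are not independent replicates. Over the 45 pairs of libraries, Spearman's rho was 0.787 to 0.976 and Pearson's r of log2(TPM + 0.1) was 0.768 to 0.981.

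**Figure D2:**
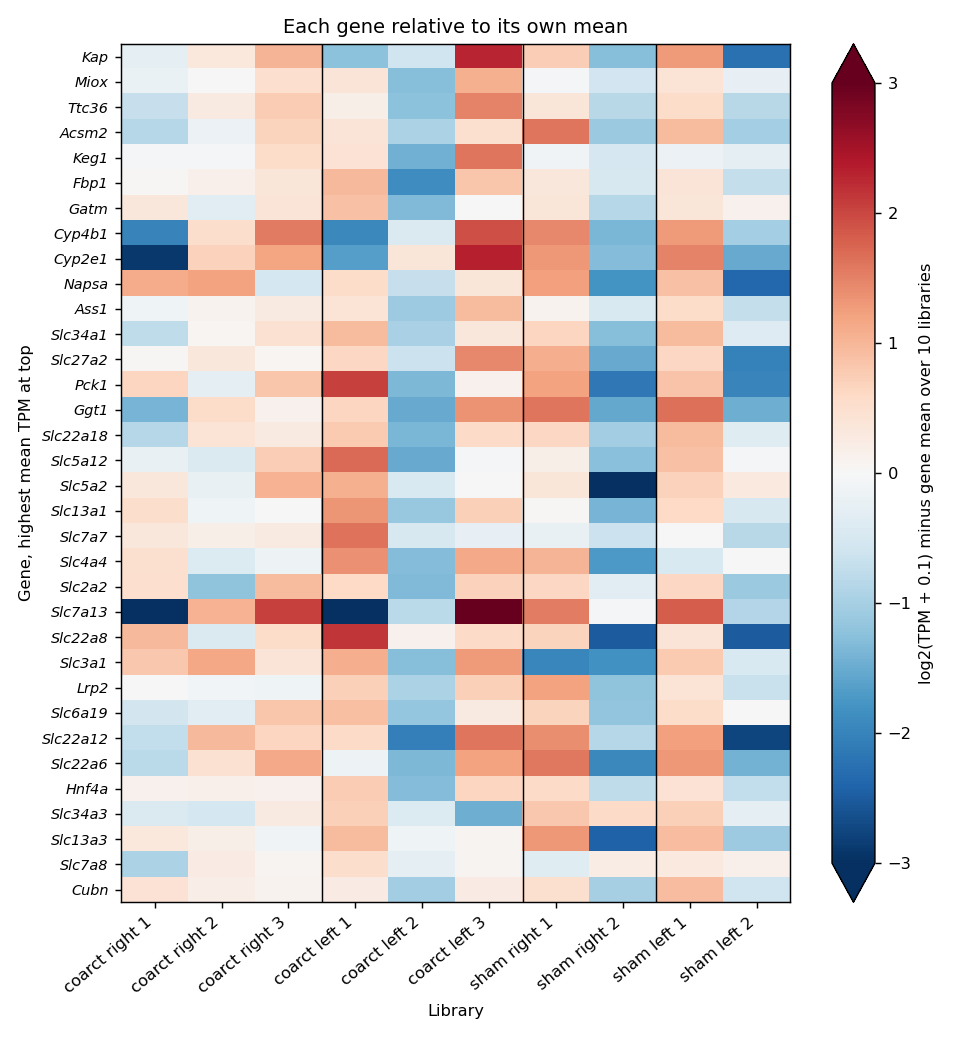
Each row is 1 of the 34 genes, ordered by mean TPM, and each column 1 of the 10 libraries; colour gives log2(TPM + 0.1) minus the gene's mean over the libraries, from -3 in blue to 3 in red. The left kidney of coarctation mouse 2 and both kidneys of sham mouse 2 are blue in nearly every row, and Slc7a13, Cyp2e1 and Cyp4b1 are blue in both kidneys of coarctation mouse 1.

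Some renin cell transcripts stood in another order. EYFP, the reporter transgene, was highest in sham right 2 with 979 TPM, coarctation left 2 with 959 TPM and sham left 2 with 717 TPM, and was 60.6 to 413 TPM in the other 7 libraries. The same 3 libraries had the highest Ren1, with 48591, 48619.9 and 43896 TPM, and the lowest sums of the tubule genes. They were also the 3 lowest without Kap, on CPM in place of TPM, with TPM rescaled after leaving out renin and mitochondrial genes, and for the sum of the 50 other tubule genes. The order was not a full reversal, since coarctation right 1 had the lowest EYFP with 60.6 TPM and only the seventh highest tubule sum. As a percentage of Ren1 TPM, the tubule sum was 53.9%, 34.8% and 57.8% in coarctation right, 10.8%, 4.12% and 34.5% in coarctation left, 25.9% and 3.55% in sham right and 23.1% and 3.42% in sham left libraries. The 3 highest percentages were those of the coarctation right kidneys, with the left kidney of coarctation mouse 3 close behind, and Ren1 itself was lowest in these right kidneys at 5451, 11982 and 10836 TPM. Akr1b7, an aldo-keto reductase of renin cells, was also highest in sham right 2 with 9780 TPM and lowest in coarctation right 1 with 1246 TPM. A list of 16 renin cell genes followed EYFP only in part. Their median log2 CPM deviation was 0.46 in sham right 2, 0.25 in coarctation left 2 and 0.35 in sham left 2. It was 0.40 in coarctation right 2 and also 0.40 in coarctation left 3, which had the highest tubule sum. Whether the share of sorted cells carrying the reporter set these levels was not tested.

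**Figure D3:**
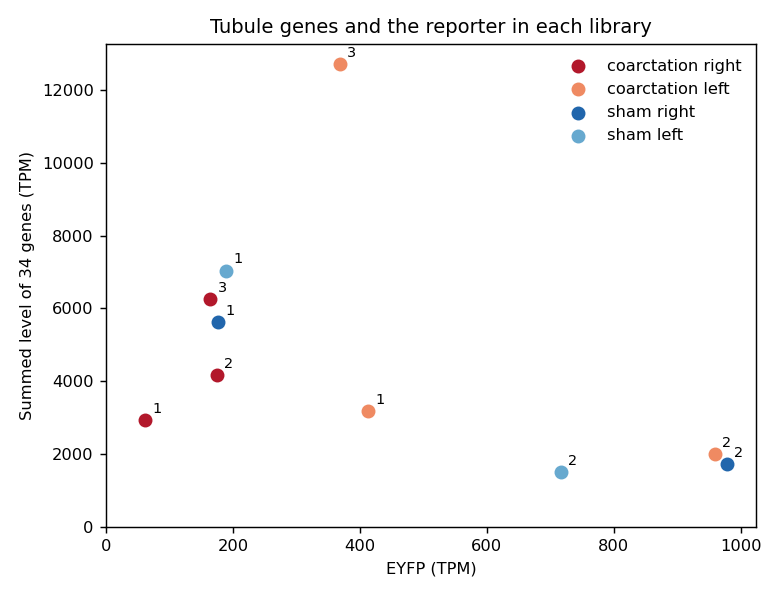
Points give the summed TPM of the 34 tubule genes against EYFP TPM in each of the 10 libraries, coloured by group and numbered by mouse. The 3 libraries with the highest EYFP, at 717 to 979 TPM, have the 3 lowest tubule sums, and the 7 others spread between 2940.1 and 12708 TPM.

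The right and left kidney of each coarctation mouse were compared first, as the right renal artery usually leaves the mouse aorta above the left. No tubule gene passed the test of coarctation right against left kidneys, edgeR's quasi-likelihood test, and 0 of all 18825 genes (0.0%) reached an adjusted p under 0.05. At an unadjusted p under 0.05, 0 of the 34 members and 871 of all tested genes (4.63%) were found in this unpaired fit. With mouse as a replicate block 2 members were under that value, against 5.93% of all tested genes, and without the filter on low counts 6 were, against 5.35%. DESeq2 called 76 genes (0.404%) and limma-voom 0 (0.0%), none of them a member. DESeq2 gave no p for Kap in this or any other comparison, so that member was not tested by it. The fitted change was below 0 for 32 of 34 members, against 48.3% of all tested genes, with a median of -0.49 on the log2 scale against 0.02 over all tested genes. With mouse as a replicate block, 26 of 34 were below 0, against 47.9% of all tested genes, the median was -0.15, and 5 genes (0.0266%) were called, none a member. In the unpaired fit the median was 0.08 without the left kidney of coarctation mouse 1 and -0.06 without that of mouse 3. Over all fits that left out a library or mouse it was -0.80 to 0.08, so its sign and size rested on single libraries.

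The 4 members of smallest p had wide errors. The estimate on the log2 scale was -0.95 (SE 0.71) for Slc4a4, -0.76 (SE 0.69) for Slc27a2, -0.68 (SE 0.55) for Keg1 and -0.51 (SE 0.46) for Slc7a8, each with an adjusted p of 1 in edgeR. The 2 members with an unadjusted p under 0.05 in the blocked edgeR fit were Cyp2e1, with an estimate of -0.87 (SE 0.32, adjusted p 0.797), and Slc22a8, with -0.76 (SE 0.31, adjusted p 0.834). Slc22a8 was the sole member lower in the right kidney in 3 of 3 coarctation mice, by -1.27, -0.73 and -0.26 in log2 CPM. That is 2.94% of the members, against 13.5% of all tested genes, and 0 members were higher in all 3, against 14.5%.

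Within single mice the direction of the whole list differed. In coarctation mouse 1, 31 of 34 members were lower in the right kidney, with a median right minus left difference of -0.86 in log2 CPM. In coarctation mouse 2, 31 of 34 were higher in the right kidney, with a median of 0.88. In coarctation mouse 3, 26 of 34 were lower, with a median of -0.65. The 2 sham mice lay near 0, with medians of -0.11 and -0.12 and 20 and 22 of 34 members lower in the right kidney. The median over all tested genes was between 0.00 and 0.03 in the 5 mice, and 49.1% to 50.9% of them were higher in the right kidney. Expressed as summed TPM, the right kidney held 0.93, 2.08 and 0.49 times the left kidney's level in coarctation mice 1, 2 and 3, and 0.80 and 1.15 times in sham mice 1 and 2. Kap weighed heavily in these ratios, which without it were 0.588, 2.41 and 0.687 in the coarctation mice and 0.989 and 0.854 in the sham mice, so that the direction turned in sham mouse 2.

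**Figure D4:**
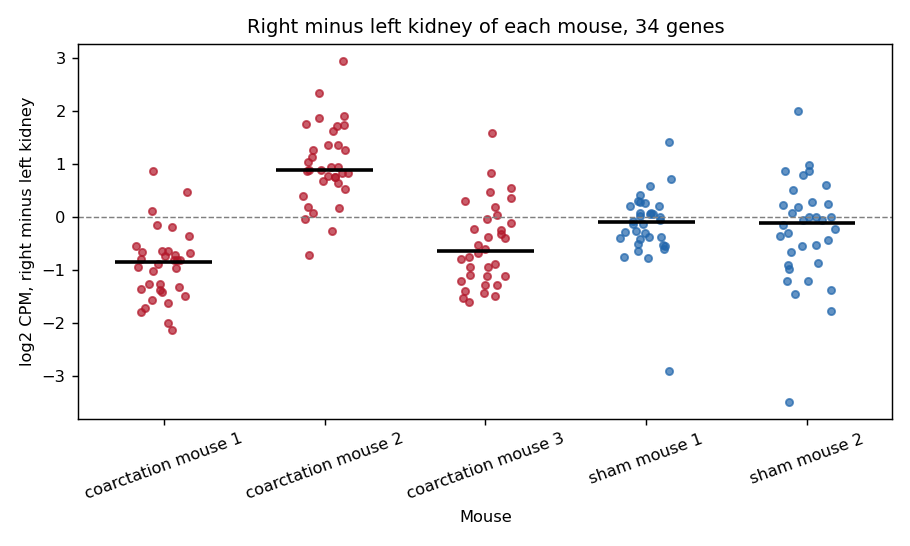
Each point is 1 of the 34 tubule genes in 1 mouse, as log2 CPM of the right minus the left kidney, and black bars are medians over the genes. The medians were -0.86, 0.88 and -0.65 in coarctation mice 1, 2 and 3 and -0.11 and -0.12 in sham mice 1 and 2.

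The difference within mice was not the same in every role. In coarctation mouse 1, 9 of 9 apical carriers, 9 of 9 basolateral and other carriers and 9 of 10 enzymes were lower in the right kidney. In coarctation mouse 2, 8 of 9, 7 of 9 and 10 of 10 of the same classes were higher there. In coarctation mouse 3, 5 of 9, 7 of 9 and 8 of 10 were lower there, with a median of -0.11 for the apical carriers and -0.74 for the enzymes. The endocytic receptors split in coarctation mouse 1, with -0.82 for Lrp2 and 0.10 for Cubn, while both were higher in the right kidney of mouse 2 and lower in that of mouse 3. The 50 other tubule genes gave medians of -0.45, 0.88 and -0.69 in the coarctation mice and -0.31 and -0.15 in the sham mice. Genes of the loop of Henle, distal tubule and collecting duct, 22 in all, gave 1.52, 0.73 and 1.03 in the coarctation mice and -0.97 and -0.82 in the sham mice, a different order from that of the proximal list. Podocyte genes, 12 in all, gave -1.26, -0.27 and -0.23 in coarctation and 0.68 and -0.44 in sham mice. Endothelial genes, 12 in all, gave 0.56, -0.26 and 0.05 in coarctation and 0.02 and -0.11 in sham mice. Leukocyte genes, 15 in all, gave 2.71, -0.60 and 0.57 in coarctation mice 1, 2 and 3, opposite in sign to the proximal list in each, and -1.46 and 1.04 in sham mice. Their summed level in the right kidney was 9.82, 0.801 and 4.52 times that in the left in the coarctation mice, and 0.279 and 2.69 times in the sham mice. The part of these other cells and of unequal numbers of tubule cells in the 2 sorts of a mouse was not tested.

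In the sham mice alone, right against left, 0 of the 34 members passed and 0 of 18825 genes (0.0%) did in edgeR. One member, Slc3a1, had an unadjusted p under 0.05, among 366 genes (1.94%). Slc3a1 and Slc5a2 were under it with mouse as a replicate block, against 3.01% of all tested genes, and without the filter, against 2.74%. DESeq2 called 28 genes (0.149%) and limma-voom 0, with 0 members. The median change of the members was -0.12 on the log2 scale, with 21 of 34 below 0 against 48.4% of all tested genes. The log2 estimates of smallest p were -2.27 (SE 0.80) for Slc3a1, -1.15 (SE 0.86) for Slc5a2, -0.93 (SE 0.86) for Slc5a12 and -0.74 (SE 0.74) for Slc13a1, each with an adjusted p of 1. In both sham mice 12 of 34 members (35.3%) were lower in the right kidney, against 24.3% of all tested genes, and 4 (11.8%) were higher, against 24.5%. These counts include near ties. Keg1 differed by only -1e-05 and Slc34a3 by 0.00544 in sham mouse 1, and Ttc36 by -0.00031 in sham mouse 2. The median was 0.60 without the left kidney of sham mouse 1 and -1.38 without its right kidney, a wide range for 2 mice.

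The difference between the side changes of the operations was tested as an interaction, coarctation minus sham. It gave 0 calls among the members and 0 among all genes (0.0%) in edgeR, with 0 members and 575 genes (3.05%) at an unadjusted p under 0.05. At that p, 0 members were found with mouse as a replicate block, against 4.15% of all tested genes, and 2, Slc3a1 and Slc27a2, without the filter, against 4.27%. DESeq2 called 34 genes (0.181%) and limma-voom 0, again no member. The members' median was -0.36, with 24 of 34 below 0 against 49.2% of all tested genes, and -0.08 with mouse as a replicate block. The interaction estimate was 2.15 (SE 0.99) for Slc3a1, -1.25 (SE 1.11) for Slc4a4, -1.18 (SE 1.09) for Slc27a2 and -1.02 (SE 0.90) for Lrp2, each with an adjusted p of 0.999981. Without the right kidney of sham mouse 1 the median was 0.83.

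Coarctation was then set against sham within each side. In left kidneys, 0 of 34 members and 0 of 18825 genes (0.0%) passed in edgeR, with 0 members and 894 genes (4.75%) at an unadjusted p under 0.05. At that p, 1 member, Slc22a8, was found with mouse as a random block in limma-voom, against 4.31% of all tested genes, and 10 of 34 without the filter in edgeR, against 5.44%, all higher in coarctation. The unfiltered fit used a spread pooled over genes and gave smaller errors at like estimates. Its SE was 0.35 for Kap and 0.39 for Keg1, against 1.02 and 0.64 with the filter. The smallest adjusted p of a member without the filter was 0.0567 in edgeR. DESeq2 called 39 genes (0.207%) and limma-voom 0, none a member. The fitted change was above 0 for 32 of 34 members, against 48.8% of all tested genes, with a median of 0.60 against -0.02 over all tested genes. The 4 members of smallest p had estimates of 2.06 (SE 1.04) for Slc22a8, 1.34 (SE 0.65) for Slc7a7, 1.32 (SE 0.82) for Slc4a4 and 1.20 (SE 0.64) for Keg1, each with an adjusted p of 0.912. Their size hung on single libraries or mice. Leaving each out gave 1.01 to 4.16 for Slc22a8, 0.15 to 1.73 for Slc7a7, 0.77 to 1.71 for Slc4a4 and 0.24 to 1.58 for Keg1. No member had all 3 coarctation left kidneys above both sham left kidneys, against 9.73% of all tested genes. The median was 0.17 without the left kidney of sham mouse 2 and 1.39 without that of sham mouse 1. With mouse as a random block in limma-voom it was 0.38, with 26 of 34 above 0 against 47.6%.

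In right kidneys, 0 of 34 members and 0 of 18825 genes (0.0%) passed in edgeR, with 1 member, Slc3a1, and 720 genes (3.82%) at an unadjusted p under 0.05. At that p, Slc3a1 and Slc5a2 were found with mouse as a random block in limma-voom, against 3.77% of all tested genes, and without the filter, against 4.92%. The members' median change was 0.31, with 26 of 34 above 0 against 47.3% of all tested genes. It was 1.33 without the right kidney of sham mouse 1 and -0.15 without that of sham mouse 2. On normalised log2 CPM, Slc7a7, Slc3a1, Keg1, Miox and Ass1 were higher in every coarctation than in every sham right kidney, 14.7% of the members against 7.2% of all tested genes. On TPM, Miox and Ass1 overlapped between these groups. Slc34a3 was lower in every coarctation right kidney, 2.94% of the members against 9.18%.

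Slc3a1 gave the smallest p of any member in any comparison. It encodes the heavy subunit of the brush border carrier for cystine and dibasic amino acids. Its level was 7.53, 9.63 and 5.59 TPM in coarctation right, 9.06, 1.68 and 10.4 TPM in coarctation left, 1.01 and 1.14 TPM in sham right and 7.36 and 3.03 TPM in sham left libraries. The 3 coarctation right kidneys lay above both sham right kidneys and the sham right kidneys below both sham left kidneys, while the left kidneys overlapped between the operations. Coarctation right minus sham right was 2.94 (SE 0.79) on the log2 scale, with an adjusted p of 0.995 in edgeR's quasi-likelihood test. DESeq2, which called 57 genes (0.303%) here, gave the same gene an adjusted p of 0.0181, and edgeR without the filter on low counts, which called 70, gave 0.0128. The unfiltered fit used a spread pooled over genes, with an SE of 0.69 in place of 0.79. limma-voom called 0 genes. When each library or mouse was left out in turn the estimate was 2.75 to 3.20. The gene lies at chr17:85028376-85064236 on GRCm38, with 10 exons, and shares exon sequence with Prepl on the other strand. Whether the counting used strand is not stated, so reads of the 2 genes may not be told apart; the estimate for Prepl itself was -0.24 (SE 0.63) in the same comparison. Its usual light chain partner, Slc7a9, was 6.03, 6.68 and 7.37 TPM in coarctation right and 8.93 and 6.12 TPM in sham right libraries, which overlapped.

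Slc7a7 was another member whose coarctation right kidneys lay apart on TPM, with 11.8, 10.6 and 11.3 TPM against 7.98 and 5.90 TPM in sham right kidneys. Its left kidneys had 28.8, 6.62 and 7.86 TPM after coarctation and 9.31 and 5.23 TPM in sham mice and overlapped. The estimate in right kidneys was 0.86 (SE 0.64), with an adjusted p of 0.995 in edgeR, and those of Slc5a2 and Slc13a1 were 1.25 (SE 0.81) and 0.91 (SE 0.69) with the same adjusted p. Slc7a7 shares exon sequence with Oxa1l on the other strand, and in all 10 of the 34 members overlapped an exon of another gene.

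In coarctation mouse 1 a few tubule genes stood apart from the other libraries in both kidneys, beside the difference between its kidneys across the list. Slc7a13, an aspartate and glutamate carrier of the late tubule, had 0.0741 TPM in its right and 0.132 TPM in its left kidney, against 1.53 to 25.7 TPM in the other 8 libraries. Cyp2e1 and Cyp4b1, with the values given above, were likewise lower in both its kidneys than in any other library. After each library's median shift was taken away, Slc7a13 averaged -4.80 in this mouse and 1.18 in the other 8 libraries, Cyp2e1 -2.58 and 0.63, and Cyp4b1 -2.27 and 0.55 on the log2 scale. On TPM, Slc22a8 and Slc7a7 were higher in both its kidneys than in any other library. With the median shift taken away neither was. Slc22a8 was then at 1.09 and 1.50, against up to 1.32 in the other 8 libraries, and Slc7a7 at 0.43 and 0.94, against up to 0.68. Other members did stand apart on this scale. Slc13a1 was at 0.62 and 0.65, against up to 0.25 in the other 8, and Pck1 at 0.74 and 1.38, against up to 0.56. Ttc36 was below, at -0.60 and -0.52, against -0.30 or more. Having both kidneys below the other 8 libraries on TPM was found for 3 members (8.82%), against 7.12% of all tested genes, which is near that background. Both were above them for 2 members (5.88%), against 1.64%. Of the 50 other tubule genes, 4 (8.0%) were below and 6 (12.0%) above in both kidneys of this mouse.

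**Figure D5:**
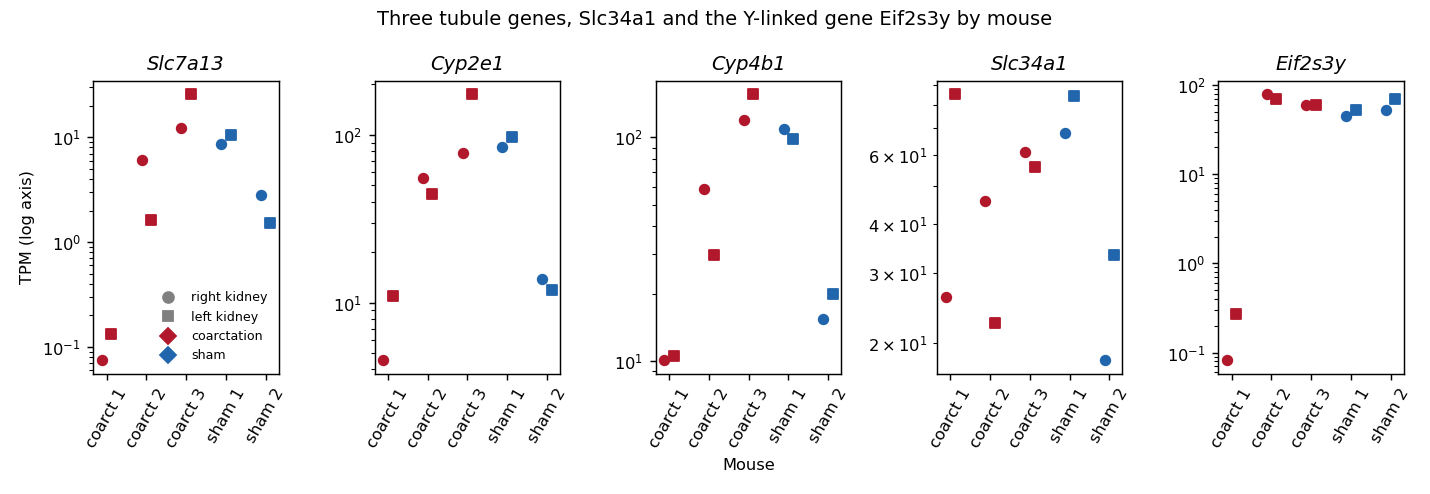
Points give TPM on log axes for Slc7a13, Cyp2e1, Cyp4b1, Slc34a1 and Eif2s3y in the right (circles) and left (squares) kidney of each mouse, coarctation in red and sham in blue. Slc7a13, Cyp2e1 and Cyp4b1 are lowest in coarctation mouse 1, where Slc34a1 stands at 26.1 and 85.3 TPM and Eif2s3y at 0.0817 and 0.268 TPM.

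The same mouse had almost no reads of Y-linked genes. Eif2s3y had 0.0817 TPM in its right and 0.268 TPM in its left kidney, against 44.8 to 78.5 TPM in the other 8 libraries, and 4 Y-linked genes summed to 2.81 and 2.36 TPM there against 76.7 to 119 TPM. Slc7a13, Cyp2e1 and Cyp4b1 are known to be higher in male than in female mouse kidney, as is Slco1a1, an organic anion carrier outside the list, which had 0.0220 and 0.0228 TPM in this mouse and 0.589 to 11.5 TPM elsewhere. Kap, also known to respond to androgen, was not below the other libraries there on TPM, with 1546 and 799 TPM. After each library's median shift was taken away, Kap averaged -1.06 in this mouse and 0.25 in the other 8 libraries on the log2 scale. Its right kidney was then at -0.20 and its left at -1.92, against -1.50 to 1.57 in the other 8. These genes were chosen after their values were seen, and the part of the animal's sex in them was not tested. Of 10 tubule injury genes, Spp1 was 1569 and 1526 TPM in this mouse and 145 to 738 TPM in the others. Clu was 185 and 175 TPM there and 131 to 373 TPM in the others, and Cd24a was 48.9 and 41.8 TPM there and 48.4 to 102 TPM in the others, so that neither followed Spp1. The other 7 injury genes reached at most 17.3 TPM in any library, Havcr1 at most 0.281 TPM and Krt20 at most 0.251 TPM.

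Sham mouse 2 stood apart in the other direction from the list. Both its kidneys were below the other 8 libraries for 9 of 34 members (26.5%), against 2.87% of all tested genes. These were Slc22a6, Slc22a8, Slc27a2, Slc13a3, Slc7a7, Kap, Pck1, Acsm2 and Napsa. Its EYFP levels, 979 and 717 TPM, were 2 of the 3 highest. Coarctation mouse 3 had both kidneys above the others for 6 members (17.6%), against 1.08%, namely Slc7a13, Slc2a2, Keg1, Miox, Ttc36 and Cyp4b1. Sham mouse 1 did so for 5 members (14.7%), against 17.9%, which is near its background.

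Genes of the early and late tubule differed in their swing between kidneys. The 11 early segment genes, all members, had median right minus left differences of -1.27, 0.52 and 0.04 in log2 CPM in coarctation mice 1, 2 and 3 and -0.06 and -0.56 in sham mice. The 6 late segment genes, of which Slc7a13 is a member, had -0.57, 1.39 and -0.97 in coarctation and 0.02 and 1.86 in sham mice. The late list summed to 4.32 to 67.8 TPM per library and the early list to 49.9 to 252 TPM. Which segment the tubule RNA came from was not tested.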

How the data were processed

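Sample labels gave the groups and the mouse number that pairs 2 kidneys. Per the file headers, the deposited table gives TPM, estimated counts and transcript lengths for each gene and library; a column of the deposited file says that the estimated counts were scaled from TPM by length and library size. Per the submitters' processing notes, FastQC and GRCm38 (mm10) were used. The aligner, quantifier, annotation and strand setting were not given in the sources used here.

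Estimated counts were rounded and fitted in R 4.3.3 with edgeR 4.0.16 (filterByExpr, TMM, quasi-likelihood test, 4 groups over all 10 libraries, which treats the kidneys of a mouse as independent). The adjusted p is by Benjamini-Hochberg over 18825 genes, with a threshold of 0.05. Alternatives were mouse as a replicate block (in edgeR between sides, in limma 3.58.1 between operations), RLE scaling, no filter, DESeq2 1.42.0, limma-voom, and leaving out each library or mouse. Levels are TPM. Differences within a mouse and the median deviations of gene lists are log2 CPM (TMM, prior count 2). The fits were tested on simulated data. Positions come from GENCODE vM21 on GRCm38 by symbol.

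The kidneys pair by animal. The deviations of the 2 kidneys from their group means correlated at 0.127, 0.0496 and 0.0307 in coarctation mice 1, 2 and 3, and at 0.398 in the sham mice, where 2 mice a group give both pairs the same value.

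The members and the other gene lists were chosen with earlier results of these data known, so no p is given for a list. The rule for named genes gave values in every library for the 12 members of highest mean TPM and for Slc34a1, Slc5a2, Slc22a6, Slc22a8, Lrp2, Cubn and Hnf4a, and estimates for the 4 members of smallest p in each comparison; Slc3a1, Slc7a7, Slc7a13 and all genes that are no members were given in addition, after their values were seen, except Ren1, Akr1b7 and EYFP. Where nothing says that reads are unique molecules, depth of 20029817 to 32006229 estimated counts per library bounds counting error only. The p-values rest on the spread between libraries, and in the blocked edgeR fit on that of differences within mice. Without the filter, edgeR's p followed a normal tail of the estimate over its SE. That fit thus used a spread pooled over genes, not each gene's own.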

Additional observations from a re-analysis of the deposited data

How the results depend on the processing

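Calls over all genes depended on the tool. For coarctation right against left, 0 genes were called by edgeR, 5 with mouse as a replicate block, 112 without the filter on low counts, 76 by DESeq2 and 0 to 4 when a library or mouse was left out. For sham right against left the counts were 19 without the filter and 28 by DESeq2, for the difference between the side changes 63, 34 and 0 to 1 when a library or mouse was left out, and for the left kidneys of both operations 67 and 39. For the right kidneys they were 70, 57 and 0 to 3. Among the members only Slc3a1 was called, in right kidneys, which gave 1 member without the filter and 1 by DESeq2. For Kap, DESeq2 gave no p. The replicate block changed no member's call, and limma-voom and RLE scaling called none.

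The members' median in sham mice was -0.0948 with RLE scaling and -0.0948 with DESeq2, and -1.38 to 0.60 when a library or mouse was left out. For the difference between side changes it was -1.05 to 0.83 in those fits. Without Kap, the mean summed level was 1899 TPM in coarctation right, 2247 in coarctation left, 1715 in sham right and 1809 in sham left kidneys. Leaving out libraries or mice gave ranges that changed sign for Keg1 (-1.03 to 0.31) and Slc7a8 (-0.76 to 0.0477) in coarctation right against left, and for Lrp2 (-1.72 to 0.48), Slc27a2 (-2.90 to 0.46) and Slc4a4 (-2.35 to 0.83) in the difference. The causes were not tested. With 2 sham mice, 1 library decides most sham values.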
